A study of Homo sapiens with 17 samples.

Results

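H3K4me1 was profiled by CUT&Tag in H1 cells carrying shHNRNPU#1 or shHNRNPU#2, a pair of short hairpin RNAs against the HNRNPU transcript, and the summits of both hairpins were compared. Libraries were chosen by antibody and hairpin from the sample titles, which gave 4 of the 17 libraries of the series, with 2 repeats per hairpin. H1 is an established line of human pluripotent stem cells, grown here in feeder-free medium. Per the labels, the cells of both groups received hairpin virus packaged in 293T cells and were then selected with puromycin, so each group was a transduced pool and not a clone. The sources used here gave no genotype change, dose or harvest time, and nothing said whether the repeats were separate cultures, so p-values measure only the spread between these libraries. H3K4me1 is not among the primary antibodies listed in the labels' protocol, and its identity rests on the titles and the design text. Beside them stand H3K27ac libraries of the same hairpins, histone libraries of H1 cells with the control hairpin shLUC, and HNRNPU libraries of H1 cells whose labels name no hairpin, with 2 repeats in each group. The hairpin sequences and the depth of the knockdown were not given either. As CUT&Tag reads a population of cells, a mark in fewer cells and a weaker mark in each cell cannot be told apart.

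Monomethylation of lysine 4 of histone H3 is written mainly by the KMT2C and KMT2D complexes and marks enhancers, both active and poised. Acetylation of lysine 27 (H3K27ac) is added by EP300 and CREBBP and separates active enhancers and promoters from poised ones. HNRNPU, also called scaffold attachment factor A, is an abundant nuclear protein that binds RNA and chromatin and is known for its part in splicing and in holding RNA on chromosomes. Hairpins against the same transcript share their target but not their sequence, and the comparison asks how alike the H3K4me1 landscapes of both knockdowns were, against the spread between repeats.

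For each library the authors deposited a list of peak summits, each a single base with a score. The 20000 highest-scoring summits of a list are called strong here. Scores grow with read depth, which is unknown, so a summit is described by the percentile of its score within its own list. The shHNRNPU#1 lists held 147145 and 152096 summits and the shHNRNPU#2 lists 174625 and 214333. The shHNRNPU#2 lists were both the longer ones, with a log2 difference of -0.37 (shHNRNPU#1 minus shHNRNPU#2, n = 2 per hairpin, exact permutation p = 0.33, two-sided, the smallest that 6 assignments allow). Rank 20000 therefore lay at the 86.4th and 86.9th percentile in shHNRNPU#1 and at the 88.5th and 90.7th in shHNRNPU#2. Pairs of libraries had 7.00% to 8.70% of summits at the same base, so none was a copy of another.

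Strong summits of the 4 libraries lying within 250 bp of the next were chained into 31681 sites. Windows just before 3 gene starts in which a site separated the hairpins are shown first, since a start gives a fixed point for reading a summit. Each holds the 250 bases before the start of the gene on its own strand in RefSeq (GRCh38.p14), with every CG dinucleotide in capitals. The ODAPH window is chr4:75555816-75556065 on the plus strand, the ALG6 window is chr1:63367377-63367626 on the plus strand, and the HSD17B7 window is chr1:162790452-162790701 on the plus strand.
ODAPH: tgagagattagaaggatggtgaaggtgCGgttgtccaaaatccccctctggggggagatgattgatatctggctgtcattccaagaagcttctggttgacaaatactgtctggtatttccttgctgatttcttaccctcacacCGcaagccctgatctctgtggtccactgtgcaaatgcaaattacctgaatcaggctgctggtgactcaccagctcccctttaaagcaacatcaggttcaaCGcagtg
ALG6: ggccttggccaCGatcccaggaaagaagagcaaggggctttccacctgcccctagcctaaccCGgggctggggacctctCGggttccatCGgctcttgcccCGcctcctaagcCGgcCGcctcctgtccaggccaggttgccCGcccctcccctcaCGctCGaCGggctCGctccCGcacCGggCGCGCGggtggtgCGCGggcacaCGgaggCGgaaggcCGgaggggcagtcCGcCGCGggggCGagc
HSD17B7: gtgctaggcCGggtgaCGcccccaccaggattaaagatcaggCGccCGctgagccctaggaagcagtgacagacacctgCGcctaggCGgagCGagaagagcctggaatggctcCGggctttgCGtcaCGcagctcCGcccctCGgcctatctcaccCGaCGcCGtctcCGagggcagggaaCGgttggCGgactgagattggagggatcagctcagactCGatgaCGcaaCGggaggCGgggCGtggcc

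ODAPH encodes a secreted protein of tooth enamel mineralisation, and the start of this gene carried the one gene-start site that passed the test described below. Its summit on chromosome 4 lay at position 75556049, 17 bp before the start, at the 94.7th and 98.5th percentile in shHNRNPU#1 and the 67.8th and 81.7th in shHNRNPU#2. No H3K27ac library of either hairpin had a summit within 500 bp of it. The sequence held 3 CG dinucleotides, whereas the median of all 15843 gene starts with a sequence was 17 and the quartiles were 6 and 26. CG on either strand occurred in 96.9% of these windows. ALG6, a glucosyltransferase of protein N-glycosylation, had a summit at position 63367468, in a window with 26 CG. It was at the 97.1st and 95.8th percentile in shHNRNPU#1 and the 86.8th and 90.5th in shHNRNPU#2. The value in shHNRNPU#2 repeat 2, 90.55, lay just under the 90.67 of rank 20000 in that list. H3K27ac there was at the 71.4th and 36.3rd percentile in shHNRNPU#1 and the 88.2nd and 73.3rd in shHNRNPU#2, in lists of different length. Among the 20000 highest H3K27ac scores, the summit was counted in repeat 1 of both hairpins and in repeat 2 of neither. HSD17B7, an enzyme of oestradiol and cholesterol synthesis, had the reverse pattern at position 162790506, with the 71.2nd and 72.0th percentile in shHNRNPU#1 and the 97.6th and 96.4th in shHNRNPU#2, and its window held 23 CG. An H3K27ac summit lay within 500 bp of it in 1 of the 4 H3K27ac libraries, shHNRNPU#2 repeat 1. Over all gene starts with a strong summit within 1000 bp in both libraries of one hairpin and none in the other, the median GC content of the 300-base RefSeq window was 64.0% for shHNRNPU#1 (56 starts) and 62.5% for shHNRNPU#2 (84 starts), beside 62.7% for all starts.

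The H3K4me1 landscapes of both knockdowns were largely shared. Repeats of shHNRNPU#1 had 71.4% of their strong summits within 250 bp of each other, and those of shHNRNPU#2 had 74.8%. Between the hairpins the overlap was 69.8%, 71.5%, 70.4% and 71.4%. The mean was 73.1% within hairpins and 70.8% between them, so that repeats exceeded other pairs by 2.29 percentage points (one-sided exact permutation p = 0.33, the smallest that 3 pairings allow). Both shHNRNPU#1 libraries overlapped shHNRNPU#2 repeat 2 about as much as they overlapped each other.

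The sites were then sorted by the libraries in which the summit was strong. All 4 libraries shared 10887 sites, or 34.4%. A further 1232 sites, 3.89% of all, were strong in both shHNRNPU#1 libraries and in neither shHNRNPU#2 library, and 1301 sites, 4.11% of all, had the opposite pattern. Pairs that mixed the hairpins were fewer, 746 to 846 sites for each of the 4 possible pairs. Sites strong in a single library numbered 2174 to 2745, more than the sites of either hairpin. The bar chart of presence patterns gives every count.

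**Figure D1:**
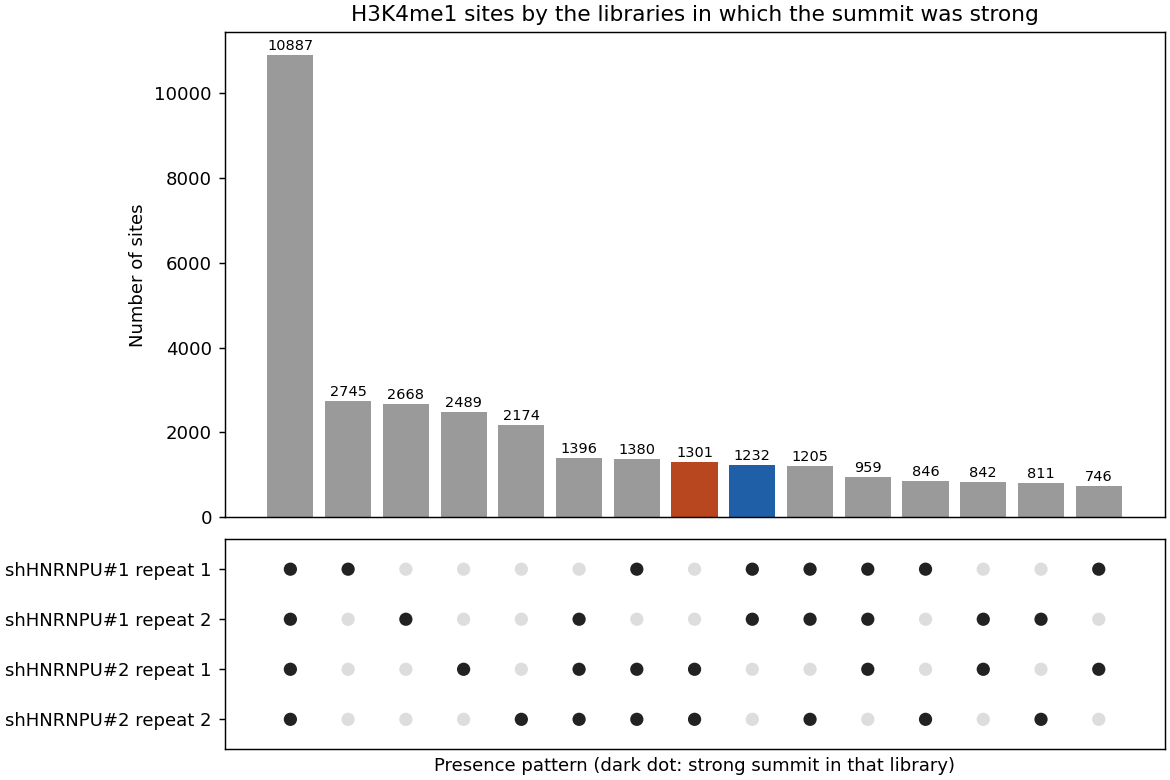
Number of H3K4me1 sites (vertical axis) for each combination of the 4 libraries in which the site had a strong summit, with dark dots marking those libraries. The hairpin-separating patterns (blue, 1232 sites strong in shHNRNPU#1 only, and red, 1301 strong in shHNRNPU#2 only) exceed the 746 to 846 sites of the mixed pairs and fall below the 2174 to 2745 of each single library.

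Few separating sites lacked the mark in the other hairpin. Of the sites strong in shHNRNPU#1 only, 93.1% had a weaker deposited summit within 250 bp in both shHNRNPU#2 libraries, 4.55% in one of them and 2.35% (29 sites) in neither. For the sites strong in shHNRNPU#2 only these shares were 87.3%, 8.61% and 4.07% (53 sites). By construction the separating sites ranked higher in their own hairpin, with a median percentile of 90.6 against 84.3 for shHNRNPU#1 and 92.7 against 80.0 for shHNRNPU#2. At 3.73% and 2.77% of them (46 and 36 sites), both libraries of the other hairpin had a strong summit within 1000 bp, and 20 and 13 of these had no summit of the other hairpin within 250 bp. Whether such a summit was shifted or was a separate neighbouring peak was not tested.

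The flank of AHNAK, which encodes a giant scaffold protein of the cell membrane, held such a pair of neighbouring strong summits. A site on chromosome 11 at position 62553274, -7448 bp from the gene's start, was at the 99.5th and 99.1st percentile in shHNRNPU#1 and had no shHNRNPU#2 summit within 250 bp. The shHNRNPU#2 summits lay at position 62553615, at the 99.7th and 99.3rd percentile, and this site had no shHNRNPU#1 summit within 250 bp. Both sites carried H3K27ac at the 98.4th to 99.2nd percentile in all 4 H3K27ac libraries and lay within 500 bp of an HNRNPU site. DNMT3A, a de novo DNA methyltransferase, had a like pair. The summit at position 25315478 of chromosome 2 lay in the gene body at the 98.1st and 96.9th percentile in shHNRNPU#1, and the nearest summit of both shHNRNPU#2 libraries, itself strong, was 344 bp away. H3K27ac at the DNMT3A site was at the 79.4th and 74.9th percentile in shHNRNPU#1 and the 88.4th and 92.8th in shHNRNPU#2. The H3K27ac lists of shHNRNPU#2 were longer, so an equal rank has a higher percentile there. Rank 20000 lay at 61.3 and 50.6 in shHNRNPU#1 and at 73.4 and 76.5 in shHNRNPU#2. The same offset bears on the H3K27ac percentiles given below.

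Other leading sites differed in rank at the same place. SUPT3H, which encodes a subunit of the SAGA acetyltransferase complex, held a site on chromosome 6 at position 45050973 with the 98.2nd and 98.7th percentile in shHNRNPU#1 and the 77.2nd and 88.3rd in shHNRNPU#2. H3K27ac had the opposite order there, with no summit in shHNRNPU#1 and the 92.8th and 74.3rd percentile in the longer lists of shHNRNPU#2. PPP1R37, a regulator of protein phosphatase 1, had 98.1 and 96.5 against 86.4 and 90.6 at position 45098461 of chromosome 19. Its value in shHNRNPU#2 repeat 2, 90.63, lay just under the 90.67 of rank 20000, and the site was not called in the test described below. CADPS2, a protein of dense-core vesicle release, separated the hairpins in both directions at different places. Position 122402384 of chromosome 7 had percentiles of 98.0 and 97.0 in shHNRNPU#1 and 66.3 and 90.2 in shHNRNPU#2, while position 122679463 had 77.1 and 82.0 in shHNRNPU#1 and 96.2 and 98.7 in shHNRNPU#2. The second of these carried H3K27ac in all 4 libraries (88.6th to 97.8th percentile), and the first in none.

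ZCCHC7, a zinc-finger protein of the nuclear exosome's adaptor complex, held the highest site of shHNRNPU#2 in or near a gene after that of AHNAK. On chromosome 9 at position 37260296 the percentiles were 76.5 and 78.2 in shHNRNPU#1 and 97.0 and 98.3 in shHNRNPU#2. H3K27ac summits near this site had the same order, at the 43.0th and 69.3rd percentile in shHNRNPU#1 and the 91.6th and 91.5th in shHNRNPU#2. Those H3K27ac lists again differed in length. At ZNF608, a zinc-finger gene, position 124707218 of chromosome 5 was at the 97.5th and 97.8th percentile in shHNRNPU#2, and the nearest shHNRNPU#1 summits, 309 and 311 bp away, were not strong. An H3K27ac summit lay there in both shHNRNPU#2 libraries (56.8th and 62.2nd percentile) and in neither shHNRNPU#1 library. Another site beside ZNF608, at position 124629268, was called higher in shHNRNPU#1 in the test described below, with 99.6 and 99.9 against 97.4 and 98.6 (difference 1.11, limma adjusted p = 0.0298). CTIF, a factor of cap-dependent translation, had 84.8 and 85.8 in shHNRNPU#1 against 96.8 and 98.1 in shHNRNPU#2 at position 48573904 of chromosome 18, with no H3K27ac summit in any of the 4 libraries.

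Sites with no summit of the other hairpin within 1000 bp were rarer still. There were 2 for shHNRNPU#1, in LAMC1, a laminin subunit of basement membranes (chromosome 1, position 183032612, 92.0th and 96.9th percentile), and in TNIK, a kinase of WNT target activation (chromosome 3, position 171310235, 89.2nd and 89.1st). The nearest shHNRNPU#2 summits were 3271 and 3034 bp from the LAMC1 site and 10701 and 2774 bp from the TNIK site. For shHNRNPU#2 there were 21. The 5 highest in or near genes were at PLAG1, a zinc-finger transcription factor (96.9th and 96.5th percentile), IFIT1B, of the interferon-induced IFIT family (96.5th and 96.7th), THRAP3, a splicing and transcription cofactor (98.1st and 95.0th), CCNY, a membrane cyclin (96.3rd and 95.5th), and CNTN4, a neuronal adhesion protein (94.6th and 97.0th). The IFIT1B site lay 368 bp after the start of the gene, and IFIT genes are similar to each other, so placement of its reads is uncertain. No shHNRNPU#1 summit occurred within 7699 bp of the IFIT1B site or 10307 bp of the CNTN4 site in either library. Of these 5 places, none had an H3K27ac summit within 500 bp in the 4 shHNRNPU H3K27ac libraries other than one at the 0.684th percentile at CCNY in shHNRNPU#1 repeat 2. All 5 had a summit within 250 bp in at least 1 of the shLUC lists titled H3K27ac, described below, from the 84.4th percentile (IFIT1B) to the 97.6th (PLAG1). The shHNRNPU#1 lists were the shorter ones, and the part of list length in these absences was not tested.

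The separating sites were compared with shared sites for what else was found there. HNRNPU sites, defined as summits of HNRNPU CUT&Tag common to both repeats in cells with no hairpin named, lay within 500 bp of 12.4% of the sites strong in shHNRNPU#1 only and 17.4% of those strong in shHNRNPU#2 only, beside 27.2% of the sites strong in all 4 libraries and 13.6% of those strong in 1. Gene starts lay within 1000 bp of 4.46% and 6.46% of the separating sites, on both sides of the 5.12% of all sites. The share was 4.24% at the sites shared by all. Gene bodies held 55.6% and 56.2% of the separating sites, close to the 55.5% of all sites, and 57.7% of the shared ones. Over whole libraries, 21.9% and 21.8% of the strong summits of shHNRNPU#1 and 21.6% and 23.5% of those of shHNRNPU#2 were at HNRNPU sites, which differed by -0.685 points (two-sided exact permutation p = 1.00). The share at gene starts was 4.74% and 4.65% against 4.59% and 5.18%, or -0.19 points apart (two-sided exact permutation p = 1.00). For both shares the shHNRNPU#1 values lay between the shHNRNPU#2 values, and both directions turned when shHNRNPU#2 repeat 2 was left out, to 0.26 and 0.105 points.

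H3K27ac, a separate readout of the same hairpins, was compared at the separating sites. In the H3K27ac libraries of shHNRNPU#1, 16.5% and 15.4% of the sites strong for H3K4me1 in shHNRNPU#1 only had a strong H3K27ac summit within 500 bp, beside 16.7% and 16.5% of the sites strong in shHNRNPU#2 only. In those of shHNRNPU#2 the shares were 13.9% and 15.5%, beside 21.5% and 22.4%. Sites strong for H3K4me1 in shHNRNPU#2 only thus carried strong H3K27ac more often in both shHNRNPU#2 libraries than in both shHNRNPU#1 libraries, while at the sites of shHNRNPU#1 the hairpins overlapped. The share at shHNRNPU#1 sites minus that at shHNRNPU#2 sites was -0.202 and -1.10 points in shHNRNPU#1 and -7.64 and -6.94 in shHNRNPU#2. The hairpins differed by 6.64 points (exact permutation p = 0.33, the smallest possible). Over all sites the H3K27ac share was also higher in shHNRNPU#2, 22.6% and 22.99% against 18.9% and 18.0%, and the H3K27ac lists of shHNRNPU#2 were longer (75264 and 85142 summits against 51655 and 40487). The part of list length in this difference was not tested.

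Control cells with a hairpin against luciferase (shLUC) were examined the same way. The titles of their histone libraries and the peak names in the files exchange the antibodies, so values are given by title for both. Gene starts held 4.4% and 4.1% of strong summits in the lists titled H3K27ac shLUC, beside 4.59% to 5.18% in the H3K4me1 shHNRNPU libraries. They held 18.9% and 21.1% in the lists titled H3K4me1 shLUC, beside 16.3% to 19.6% in the H3K27ac shHNRNPU libraries. On this measure the lists titled H3K27ac shLUC resembled the H3K4me1 libraries. In the lists titled H3K27ac shLUC, which overlapped the 4 H3K4me1 shHNRNPU libraries by 68.2% to 73.5%, 31.7% and 27.8% of the sites strong in shHNRNPU#1 only and 53.7% and 54.0% of those strong in shHNRNPU#2 only had a strong summit within 500 bp. The shares were 91.8% and 91.4% at the sites shared by all 4. In the lists titled H3K4me1 shLUC, which overlapped by 20.9% to 24.3%, they were 12.0% and 12.3%, 19.4% and 20.2%, and 28.5% and 30.4%. By either title the separating sites of shHNRNPU#2 were the more often strong in control cells. A test of this was not made, as the sites of both hairpins come from lists of different length.

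The rank of a summit was tested next at the 29023 sites with a deposited summit within 250 bp in all 4 libraries. The scores were turned to normal scores by rank, so that a difference of 1 is 1 SD of the sites tested, and compared with limma. The difference was called at 27 sites higher in shHNRNPU#1 (0.093% of those tested) and 6 higher in shHNRNPU#2 (0.0207%), at a limma adjusted p under 0.05. A site entered the test through a strong summit in any library, chosen on the same scores. Of the 27 sites, 11 were strong in neither shHNRNPU#2 library and so entered only through the hairpin in which they ranked higher, as did 1 of the 6. These 11 had the largest differences of the 27 and included ROR1, MAP4, STARD10, PGM1, TBX19, ODAPH and SUPT3H, and the 1 was ZCCHC7. At such sites the p-value is not independent of the choice of site. An unadjusted p under 0.05 was reached at 2554 sites, or 8.80%. Across sites the hairpin difference had an SD of 0.670, against 0.553 computed from the differences between repeats alone. The repeats correlated with r = 0.654 for shHNRNPU#1 and 0.734 for shHNRNPU#2, and libraries of different hairpins with r = 0.603 to 0.638 across sites, which are not independent replicates. When 1 library was left out, most called sites were higher in the hairpin that kept both of its libraries. Without either shHNRNPU#2 library (repeat 1 or 2), 5 and 9 sites were called, all higher in shHNRNPU#1, and without either shHNRNPU#1 library, 24 and 16 were called, of which 20 and 14 were higher in shHNRNPU#2. Of the 33 sites, 4 to 7 were called again in each of these fits, and none changed direction in any alternative. Each kept its call in 5 to 9 of 11 alternatives and none in all.

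The called sites of shHNRNPU#1 included 15 in gene bodies, 6 within 10 kb of a gene, 5 between genes and the one at the start of ODAPH. A single one, in QSOX2, a thiol oxidase gene, lay at an HNRNPU site, beside 19.4% of all sites. Of the 27, 11 had no H3K27ac summit in any of the 4 H3K27ac libraries, and the share of all sites without one was not counted. The widest difference was in ROR1, a receptor of WNT5A (chromosome 1, position 63951581), at a site that entered the test only through shHNRNPU#1. Its summit was at the 97.4th and 95.7th percentile in shHNRNPU#1 and at the 23.8th and 60.5th in shHNRNPU#2, a normal-score difference of 3.70 ± 0.770 (SE, n = 2 per hairpin, limma adjusted p = 0.00546). MAP4, a microtubule-binding protein, followed with 96.6 and 95.7 against 51.7 and 77.4 on chromosome 3 at position 47910978 (difference 2.78, limma adjusted p = 0.0256). STARD10, a lipid transfer protein, had 96.7 and 97.8 against 70.0 and 75.4 at position 72771629 of chromosome 11 (difference 2.73, limma adjusted p = 0.00546). STARD10 was the only one of these with H3K27ac in all 4 libraries, at the 32.6th to 59.8th percentile.

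A site beside PGM1, the phosphoglucomutase of glycogen metabolism, lay on chromosome 1 at position 63663008 with 97.4 and 96.0 against 53.3 and 83.7 (difference 2.63, limma adjusted p = 0.0178). With summits matched at 500 bp the PGM1 difference was 1.68 and the call was lost (limma adjusted p = 0.136). ALG6, PGM1 and ROR1 are neighbours on chromosome 1, and their 3 sites, all higher in shHNRNPU#1, lay between positions 63367468 and 63951581, a grouping noted after the values were seen. TBX19, a T-box factor of pituitary cells, had 95.4 and 96.1 against 36.9 and 86.2 beside the gene at position 168321168 (difference 2.60, limma adjusted p = 0.0384). Without shHNRNPU#2 repeat 1 the TBX19 difference was 1.72 (limma adjusted p = 0.884). The difference at the ODAPH start was 2.50 ± 0.555 (SE, limma adjusted p = 0.0178). SPRED2, an inhibitor of RAS and ERK signalling, held a called site in a gene of the FGF and ERK list described below, with 98.2 and 97.7 against 92.3 and 80.0 (difference 1.88, limma adjusted p = 0.0384). Without shHNRNPU#2 repeat 2 the SPRED2 difference was 1.15 (limma adjusted p = 0.836).

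For shHNRNPU#2, 3 of the 6 called sites were in gene bodies and 3 between genes. None was at an HNRNPU site, beside 19.4% of all sites. ZCCHC7, described above, differed by -2.07 ± 0.508 (SE, limma adjusted p = 0.0455). LRCH1, a regulator of the actin cytoskeleton, had 94.5 and 94.0 in shHNRNPU#1 and 99.4 and 99.7 in shHNRNPU#2 at position 46648296 of chromosome 13 (difference -1.32, limma adjusted p = 0.0396). CDKAL1, a tRNA-modifying enzyme, differed within the top of all lists, with 99.95 and 99.83 against 99.99 and 99.997 at position 20810466 of chromosome 6 (difference -0.76, limma adjusted p = 0.00546). The sites between genes lay on chromosome 5 at positions 124979365 and 84600137 and on chromosome 2 at position 52239013. The difference at position 84600137 was -0.88, and -0.48 without shHNRNPU#1 repeat 1, where the call was lost. At the chromosome 2 site H3K27ac was at the 99.1st and 98.2nd percentile in shHNRNPU#2, at the 75.8th in shHNRNPU#1 repeat 2 and without a summit in repeat 1.

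**Figure D2:**
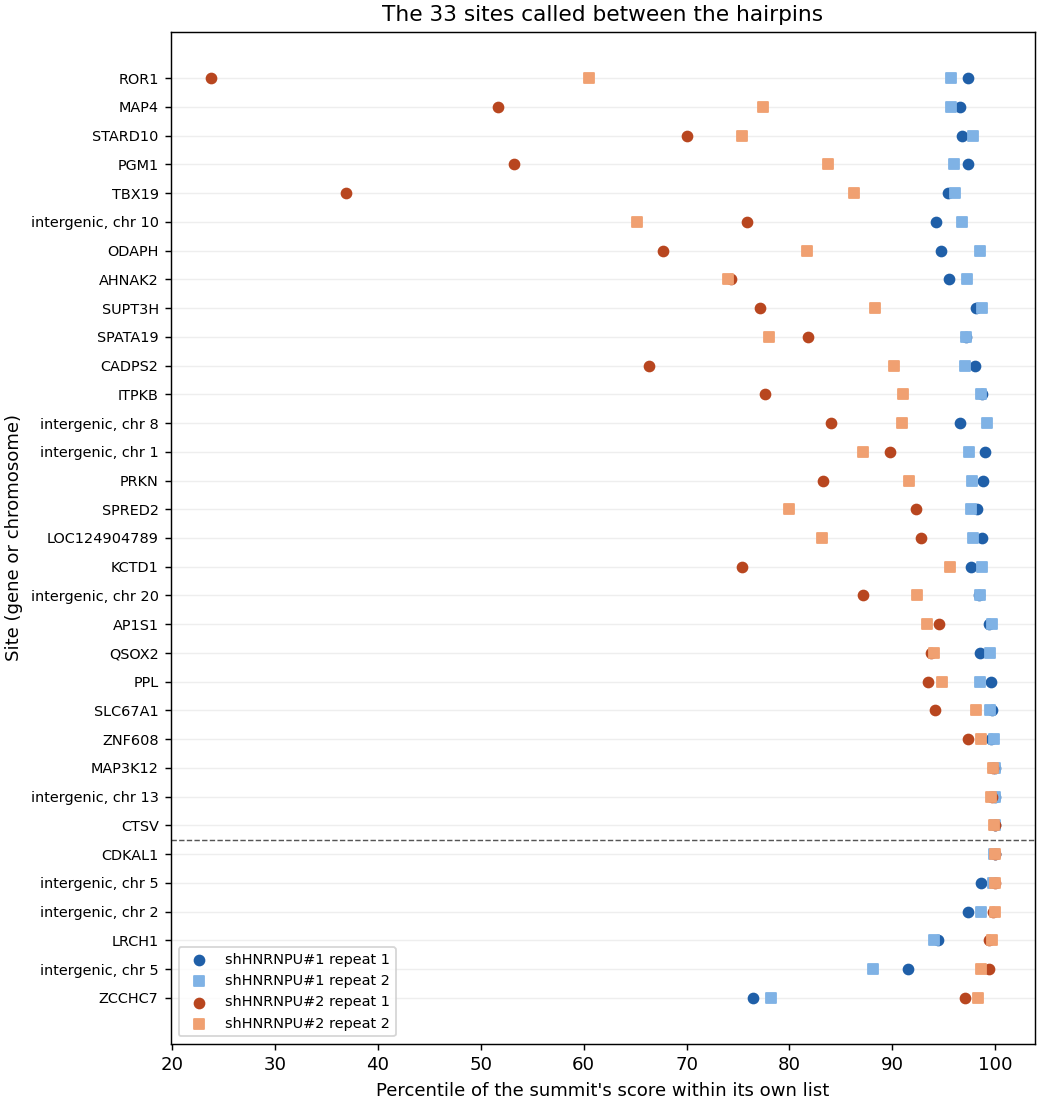
Percentile of the summit score within its own list (horizontal axis) in each of the 4 libraries for the 33 called sites (rows, named by gene or chromosome), with the 27 sites higher in shHNRNPU#1 above the dashed line and the 6 higher in shHNRNPU#2 below it. Blue points (shHNRNPU#1) of the upper sites lie above the 94th percentile, while red points (shHNRNPU#2) spread from the 23.8th upward, and near the right edge points of all libraries overlap.

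Genes were compared by their number of strong summits in the gene and 10 kb on both sides. At 52 of the 10519 genes with any strong summit (0.494%), the lower shHNRNPU#1 library exceeded the higher shHNRNPU#2 library by 2 or more, and at 51 genes (0.485%) the reverse held. They formed 51 and 50 separate loci, with a median length of 137510 and 291867 bp beside 38270 bp for all 10519. A gap of 2 or more needs at least 2 strong summits in the window, so the rule itself favours long genes. No test was made of these counts, since a summit count is a description of strong sites and not of reads.

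CAMTA1, a calmodulin-binding transcription activator, had a gap of 5 toward shHNRNPU#1, with 21 and 19 strong summits against 12 and 14. PLCL2, described below, had the same gap, and CAMTA1 the larger mean difference. The lists held 132 and 128 summits of any strength there in shHNRNPU#1 and 129 and 155 in shHNRNPU#2, so totals of any strength overlapped between the hairpins. Of the sites in its window, 8 were shared by all 4 libraries, 4 were of shHNRNPU#1 only and none of shHNRNPU#2 only. MAGI2, a synaptic scaffold protein, had a gap of 5 toward shHNRNPU#2, with 7 and 6 against 13 and 12 strong summits, as did TCF12 with a smaller mean difference. There 4 sites were of shHNRNPU#2 only and none of shHNRNPU#1 only, and the deposited summits numbered 54 and 55 against 74 and 87. The maps of both genes place these summits along the transcript.

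**Figure D3:**
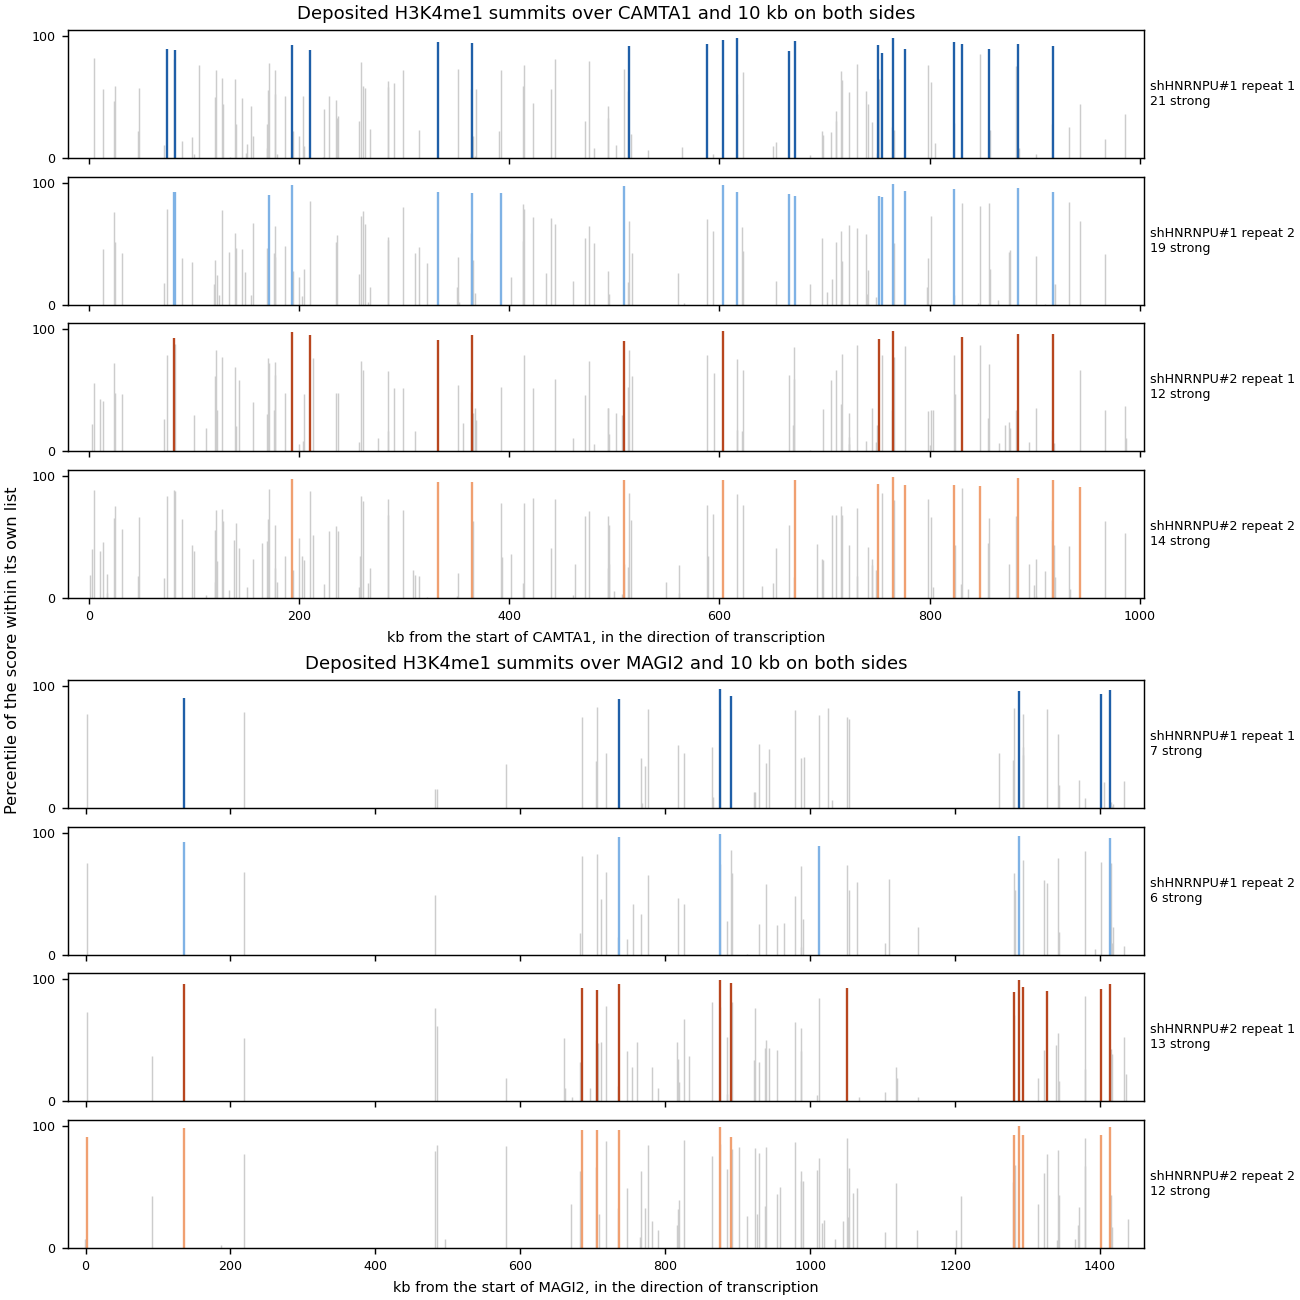
Every deposited H3K4me1 summit over CAMTA1 (upper panels) and MAGI2 (lower panels) in each of the 4 libraries, by distance from the gene's start in kb and percentile of its score in its own list, with strong summits in colour and the others in grey. Strong summits number 21, 19, 12 and 14 over CAMTA1 and 7, 6, 13 and 12 over MAGI2, and are spread along both genes.

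Other genes with more strong summits in shHNRNPU#1 covered several functions. PLCL2, a phospholipase C-like protein without catalytic activity, had 11 and 11 against 6 and 6. ABTB2, a BTB and ankyrin repeat protein, had 8 and 8 against 4 and 4, PDE2A, a cyclic nucleotide phosphodiesterase, 10 and 9 against 4 and 6, and KSR1, a scaffold of the ERK cascade, 8 and 8 against 5 and 4. GRIK4, a kainate receptor subunit, had 7 and 7 against 4 and 4, and CDYL, a chromodomain corepressor, 12 and 14 against 10 and 8. ALPL, the alkaline phosphatase used as a stain for pluripotent cells, had 5 and 8 against 3 and 3, and FRMD4A, a scaffold of cell polarity, 14 and 13 against 11 and 9. RANBP2, a nucleoporin, had 8 and 6 against 4 and 3. Its annotated interval of 1122820 bp overlapped the windows of 6 other genes and RANBP2 has close copies, so these summits cannot be assigned to it alone.

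Toward shHNRNPU#2, TCF12, a basic helix-loop-helix partner of lineage factors, had 5 and 6 against 11 and 11. ANKRD11, a chromatin cofactor, had 11 and 13 against 17 and 17 in a window that overlapped those of 4 other genes. CDKAL1 had 7 and 8 against 12 and 13, so that this gene favoured shHNRNPU#2 both in number and, at the called site, in rank. ROBO2, a receptor of axon guidance, had 5 and 6 against 10 and 10. SLC7A8, an amino acid transporter, had 1 and 2 against 5 and 5, TTC7B, of a lipid kinase complex at the cell membrane, 3 and 2 against 6 and 6, and HMCN1, an extracellular matrix protein, 2 and 2 against 5 and 5. The dot plot of gene counts shows that libraries of different hairpins do not overlap at any of these genes, which the rule itself requires.

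**Figure D4:**
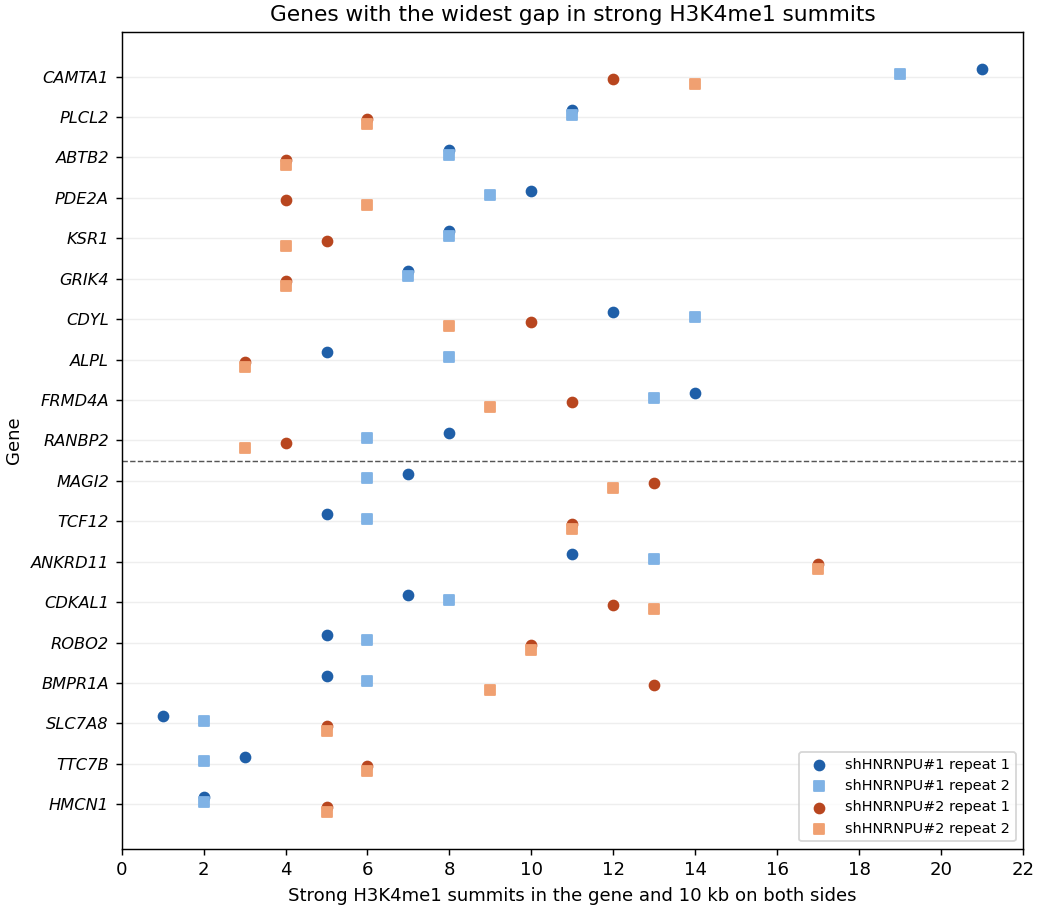
Number of strong H3K4me1 summits in the gene and 10 kb on both sides (horizontal axis) in each of the 4 libraries for the genes with the widest gap in each direction that are named here (rows, 10 favouring shHNRNPU#1 and 9 favouring shHNRNPU#2), with those favouring shHNRNPU#1 above the dashed line. CAMTA1 spans 12 to 21 summits and MAGI2 spans 6 to 13, and small vertical offsets separate points of equal count.

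H3K27ac, which did not choose these genes, was counted over the same windows. The 52 genes favouring shHNRNPU#1 held 176 and 173 strong H3K27ac summits in shHNRNPU#1 and 153 and 144 in shHNRNPU#2, a ratio of 1.18. The 51 genes favouring shHNRNPU#2 held 187 and 217 against 230 and 224, a ratio of 0.890, and all 10519 genes gave a ratio of 1.03. The mean H3K27ac count was higher in shHNRNPU#1 at 27 and in shHNRNPU#2 at 13 of the first 52 genes, and at 16 and 27 of the other 51. It was equal at 12 and 8 genes. Over all 10519 genes it was higher in shHNRNPU#1 at 3454, higher in shHNRNPU#2 at 3206 and equal at 3859. CAMTA1 did not share the order of its group of 52, with 11 and 9 H3K27ac summits in shHNRNPU#1 and 10 and 13 in shHNRNPU#2. MAGI2 shared that of its group of 51, with 7 and 7 against 9 and 10. PDE2A had no strong H3K27ac summit in any library.

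Lists of genes for the state of the cells and for pathways were read next. Over all 20037 protein-coding genes, 52.5% had a strong summit in at least 1 library. Pluripotency genes had one at 14 of 16 members and a total of 24 and 22 summits in shHNRNPU#1 and 25 and 24 in shHNRNPU#2. A gap of 2 or more occurred at 1 gene in each direction. DNMT3B, the de novo DNA methyltransferase of pluripotent cells, had 6 and 6 against 4 and 4, and ZIC2, a zinc-finger factor of primed pluripotency, 1 and 1 against 3 and 3. SOX2, a core pluripotency factor, had 3 and 4 against 3 and 3, NANOG, another, 2 and 2 against 2 and 2, and LIN28B, an inhibitor of let-7 processing, 3 and 2 against 5 and 2. OTX2, a factor of the primed state, had 1 and 1 against 1 and 2. POU5F1, which encodes OCT4, had 1 strong summit in shHNRNPU#1 repeat 1 and none elsewhere, and its highest summit reached the 87.4th, 79.5th, 88.3rd and 90.0th percentile in the 4 libraries. HNRNPU itself had no strong H3K4me1 summit in any library, and its highest was at the 28.2nd and 35.1st percentile in shHNRNPU#1 and the 24.9th and 71.1st in shHNRNPU#2. H3K4me1 does not measure the transcript, so this is no check of the knockdown.

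Markers of other cell types were counted the same way. The share of all protein-coding genes with a strong summit was 52.5%, and markers had one at 8 of 13 mesendoderm, 12 of 14 neural, 6 of 10 trophectoderm and amnion, 7 of 9 fibroblast and 7 of 11 naive pluripotency genes, with no gap of 2 or more in either direction. Their totals were 8 and 6 against 11 and 10 for mesendoderm, 22 and 23 against 22 and 22 for neural, 11 and 6 against 9 and 6 for trophectoderm and amnion, 6 and 9 against 9 and 6 for fibroblast and 9 and 7 against 6 and 9 for naive genes. The hairpins overlapped or touched in each except mesendoderm, where both shHNRNPU#2 totals were the higher ones. With 2 libraries per hairpin and no difference, the probability of no overlap is about 0.33 for a list, so 1 such list shows no difference. FOXA2, an endoderm factor, had 1 and 0 against 2 and 2, and GATA3, a trophectoderm factor, 2 and 0 against 2 and 3. EOMES, of mesendoderm, had 3 and 0 against 2 and 3, and TFAP2A, of trophectoderm, 4 and 4 against 4 and 2. LHX2, a neural factor, had 2 and 2 against 1 and 1, MEIS1, another, 1 and 2 against 2 and 3, TWIST2, of mesenchyme, 0 and 0 against 1 and 1, COL1A1, a collagen gene, 3 and 4 against 3 and 3, and ARGFX, of the early embryo, 0 and 0 against 1 and 1. DPPA3, of naive cells, had 1 and 1 against 0 and 1.

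Among signalling pathways, the Nodal, activin and BMP list held the gene with the widest gap. BMPR1A, a type I receptor for BMP ligands, had 5 and 6 strong summits in shHNRNPU#1 and 13 and 9 in shHNRNPU#2, in a window that overlapped those of 2 other genes, with 2 sites of shHNRNPU#2 only and H3K27ac at 6 and 6 against 8 and 7 summits. Of the 16 members with a strong summit it was the 1 gene with a gap of 2 or more. Counting gaps of 1 or more, 2 members were higher in shHNRNPU#1 and 4 in shHNRNPU#2. Such gaps occurred at 6.28% and 5.89% of the 10519 genes with any strong summit. ID1 and ID2, BMP target genes, had such gaps in opposite directions, with 0 and 1 against 2 and 2 and with 1 and 2 against 0 and 0. LEFTY2, a Nodal inhibitor, had 0 and 1 against 2 and 2, and ACVR1B, the activin type I receptor, 2 and 2 against 1 and 1. The list's median difference was -0.50 summits, beside 0.00 over all genes.

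Member counts are again to be read beside 52.5% for all genes. Gaps of 1 are to be read beside 6.28% and 5.89% of genes with a strong summit. The WNT list had no gap of 2 or more among 20 members with a strong summit, 2 gaps of 1 toward shHNRNPU#1 and 3 toward shHNRNPU#2, and a median of -0.50. LEF1, a transcription factor of the pathway, had 6 and 7 against 5 and 3, and LRP5, a coreceptor, 5 and 4 against 5 and 7. In the FGF and ERK list, 19 of 21 genes had a strong summit and none had a gap of even 1. GRB2, an adaptor of receptor tyrosine kinases, had 6 and 7 against 6 and 4, and DUSP6, an ERK phosphatase, 0 and 1 against 2 and 1.

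Genes of H3K4 methylation, nuclear architecture, RNA interference and stress responses gave no gap of 2 or more, and their shares with a strong summit lay on both sides of the 52.5% for all genes. Of 22 writers, erasers and readers of H3K4 methylation, 15 had a strong summit and a total of 17 and 21 against 21 and 19. KMT2A and KMT2B, both H3K4 methyltransferases, had 1 and 2 against 1 and 0 and 0 and 2 against 0 and 0. Nuclear architecture genes had 19 and 22 against 20 and 20 in total over 12 of 23 members. SATB1, a matrix attachment factor, had 2 and 2 against 4 and 3, with H3K27ac at 2 and 4 against 0 and 2 summits, and WAPL, which releases cohesin, had 1 and 1 against 0 and 0. For RNA interference, AGO2, the slicer of small RNA guided cleavage, had 4 and 6 against 3 and 3, and DICER1, which cuts hairpin precursors, 3 and 1 against 3 and 3, with 10 of 13 members carrying a strong summit. The innate immune list had 10 of 22 members with a strong summit, with IRF3, a factor of interferon induction, at 0 and 0 against 1 and 1 and ISG15, an interferon-stimulated modifier, at 0 and 1 against 2 and 1. The p53 and stress list had 10 of 17, with MDM2, the ubiquitin ligase of p53, at 1 and 0 against 1 and 1 and TP53INP1, a p53 target, at 0 and 0 against 0 and 1. The median difference was 0.00 in each of these 5 lists and in the FGF list.

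Strong summits were finally divided by chromosome. The hairpins did not overlap on 9 of 23 chromosomes (39.1%), with 5 higher in shHNRNPU#1 and 4 higher in shHNRNPU#2. With 2 libraries per hairpin and no difference, the probability of no overlap is 0.33, so the count is near that share. Chromosome 22 held 2.28% and 2.28% of the strong summits in shHNRNPU#1 and 2.12% and 2.04% in shHNRNPU#2, a ratio of 1.09, and chromosome 16 held 3.03% and 3.06% against 2.89% and 2.84%. Chromosome 4 held 4.62% and 4.52% against 4.94% and 4.91%, a ratio of 0.928, and the X chromosome 1.16% and 1.07% against 1.23% and 1.19%. Chromosome 6 held 6.13% and 6.14% against 6.44% and 6.53%. On 7 of the 9 chromosomes the difference between hairpins exceeded that between the repeats of either hairpin, and on chromosomes 2 and 14 it did not. They depended on the number of summits, with 15 such chromosomes among the 10000 highest scores and 19 among all deposited summits.

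The H3K27ac libraries of the same hairpins, which share no library with these, divided alike. They did not overlap on 16 chromosomes (69.6%), and on 8 chromosomes this held for both marks, with the same direction at each. The H3K27ac share on chromosome 22 was 2.79% and 2.94% against 2.40% and 2.27%, a ratio of 1.23, and on chromosome 4 it was 4.35% and 4.37% against 5.03% and 5.05%, a ratio of 0.866. Across the 23 chromosomes the log2 ratio of the hairpins for H3K4me1 and that for H3K27ac had a Pearson r of 0.886 and a Spearman rho of 0.870. Chromosomes share libraries and list lengths, so this is a description. The number of protein-coding genes per Mb moved with both ratios (r = 0.576 for H3K4me1 and 0.605 for H3K27ac). The shHNRNPU#1 lists were shorter for both antibodies. The part of gene density and list length in the result was not tested.

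**Figure D5:**
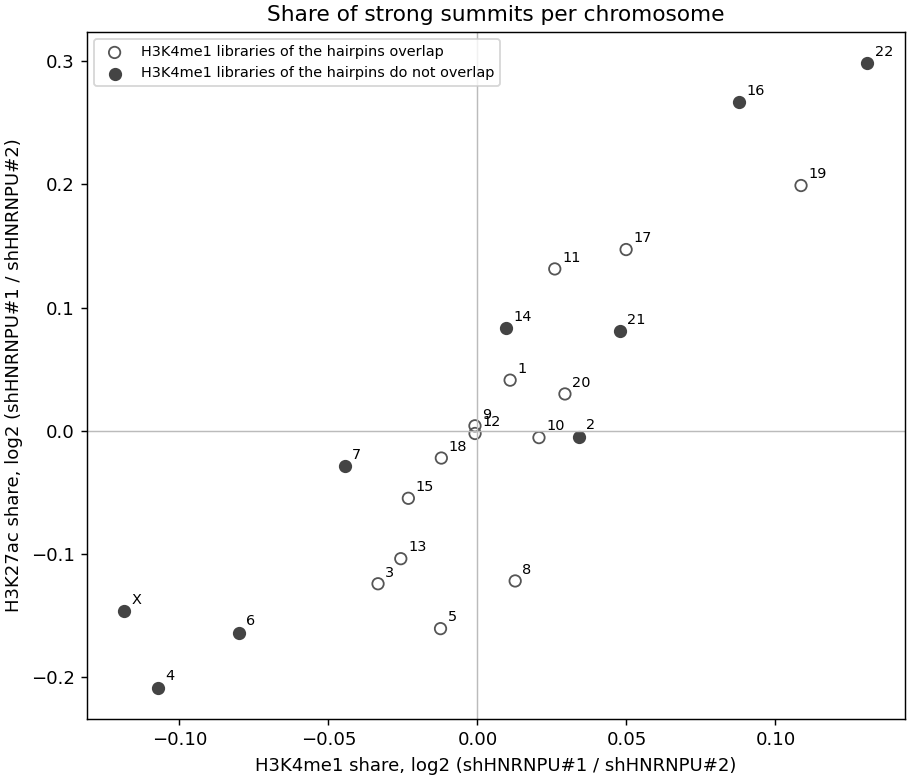
Log2 ratio of the mean share of strong summits on a chromosome, shHNRNPU#1 over shHNRNPU#2, for H3K4me1 (horizontal axis) and H3K27ac (vertical axis), 1 point per chromosome, filled where the H3K4me1 libraries of the hairpins did not overlap. Chromosomes 22, 16 and 19 lie highest on both axes, chromosomes X, 4 and 6 lie lowest for H3K4me1 and chromosomes 4, 6 and 5 lowest for H3K27ac, along a rising band (r = 0.886).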

How the data were processed

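Per the labels, H1 cells were assayed by CUT&Tag and sequenced on an Illumina instrument. The submitters' processing notes name cutadapt, Bowtie2, SAMtools, MACS2, deepTools and the build hg38, without versions, parameters or roles. The authors deposited 1 list of summits per library, and the score in each list was read as a −log10 significance (from a p-value or a q-value) after the MACS2 layout of the files, with a lowest score of 2.00 in all 4 lists. Which of these it is was not given in the sources used here, so the deposited scores served only as ranks within a list. Reads per library are unknown, and no interval for counting error could be given. A further deposited list of HNRNPU intervals carries a score of 0 throughout, and its positions were used for an alternative.

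The 20000 highest scores of a list were strong summits, and those of the 4 libraries were chained into sites at 250 bp. Sites with a summit in all 4 libraries were tested on rank-based normal scores with limma 3.58.1 (R 4.3.3), eBayes with trend and Benjamini-Hochberg adjustment at 0.05. The estimated prior degrees of freedom were infinite, so every site's error came from the variance trend. The 2658 sites lacking a summit in a library were not tested. The script was tested on simulated data. Single values were compared by exact permutation. Genes and starts came from RefSeq GRCh38.p14, with 20037 protein-coding genes, of which 15843 had a strand and a start. The planned gene-end share is therefore the share within 1000 bp of these starts. HNRNPU sites numbered 17226. The named genes were HNRNPU and 7 pluripotency genes, the 5 largest called differences and the 5 highest separating sites per direction in or near genes, the 5 highest without a nearby summit of the other hairpin, the 10 widest gene gaps per direction, and list members with a gap of 2 or the 2 largest mean differences. The members, lists and tests were chosen with earlier results of these data known. ODAPH, ALG6, HSD17B7, SPRED2, QSOX2, ID1, ID2, LEFTY2 and ACVR1B were named after their values were seen. Of the genes this rule names, 1 is not reported here. Alternatives were other scales, list lengths, distances, gaps and the omission of each library. Deviations of libraries with the same repeat number from their hairpin's mean had a correlation of -0.015, so no site pattern shared by repeat number was seen. Ranking within a list removes any uniform shift, so whether equal numbers mark a common batch is unknown.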

Additional observations from a re-analysis of the deposited data

How the results depend on the processing

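The site test called 33 sites, and it called 57 and 54 on the log2 score scale after quantile normalisation and after median centring, 104 with missing summits set to the lowest score of a list and 76 with 40000 strong summits. With a replicate block the count was 24, all among the 33, and whether equal repeat numbers mark a common batch is unknown. Leaving out a library gave 5 to 24, with the lone library of a hairpin assumed to vary like the other hairpin's. Which hairpin had more called sites turned in the fits without either shHNRNPU#1 library. The separating sites numbered 2533 and came to 1351 with 10000, 4851 with 40000 and 24309 with all deposited summits, 82 where absence meant no deposited summit within 250 bp, and 5676 to 6681 with a library left out, since fewer libraries then had to agree. Genes with a gap of 2 or more numbered 103 and came to 39 with 10000 and 275 with 40000 summits, 17 with a gap of 3 and 300 to 418 with a library left out. Chromosomes where the hairpins did not overlap rose from 9 to 15 with 10000 summits and 19 with all. The difference in gene-start share turned from -0.19 to 0.0812 points with all deposited summits, and that in HNRNPU-site share from -0.685 to 1.42. With a library left out they ranged from -0.485 to 0.105 and from -1.63 to 0.26, and were above 0 only without shHNRNPU#2 repeat 2. The cause of these reversals was not tested. Another 32 values of a comparison under an alternative kept their direction and size class, and none of the 33 called sites changed sign. Over those sites and 11 alternatives the call was kept in 226 cases and lost in 137, and no site kept it in all. With 2 libraries per hairpin no exact test could reach 0.05, and the unknown depth limits what the absence of a summit shows.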
